A study of Macaca mulatta with 27 samples.

Results

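The genes described here are members of the fibroblast growth factor (FGF) family and its receptors: the ligand-family genes FGF2, FGF4, FGF8, FGF17, FGF19 and FGF13, and the receptor genes FGFR1, FGFR2, FGFR3 and FGFR4. They were chosen by symbol, and all 10 were found among the 17967 genes of the count tables. Secreted FGFs bind receptor tyrosine kinases together with heparan sulfate, or with a Klotho protein for the endocrine members, and the receptors signal through RAS, MEK and ERK. ERK activity in turn induces Sprouty and DUSP genes, which dampen the signal, and ETS factors of the ETV family. In primate PSCs the pathway is known for sustaining the primed state, and FGF2 is a usual supplement of primed culture, whereas culture of mouse naive cells blocks MEK.

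The study reprogrammed rhesus PSCs from the primed towards the naive state with 7 protocols and sequenced bulk RNA. Of the 27 libraries, 6 came from primed cells and 3 from cells of each protocol, namely 4i/L/b, E-NHSM, LCDM (EPS), NHSM-v, t2iLGöY, TL2i, and TL-CDK8i, which the paper calls TL-CDK8/19i. The cells are rhesus ESCs of 1 clonal line, LyonES-tGFP-(S3), which carries a tauGFP transgene under the ubiquitous CAG promoter and a lentiviral STAT3-ERT2 vector in primed and reprogrammed cells alike. TL2i combined tamoxifen, which activates STAT3-ERT2, with LIF and inhibitors of MEK and GSK3β, and TL-CDK8i replaced both inhibitors by the CDK8/19 inhibitor CNIO-47799. The other 5 protocols were run without tamoxifen, which left STAT3-ERT2 inactive. The full compositions of these 5 protocols are not given in the sources used here, so whether a medium held added FGF is not known for them. The labels do not say whether the libraries of a group are separate cultures, and p-values measure only the spread between libraries. The primed columns carry the letters J and K, with 3 libraries each, which could not be matched to the sets in the labels, and the labels disagree on the set number of 2 primed libraries.

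Total counts ranged from 7111886 to 20760914 per library with a median of 12201171. Levels are in CPM, the usual unit of counts scaled to a library's size, here TMM-normalized, and 3 counts, the floor used here, correspond to 0.141 to 0.429 CPM. Floors cover counting error only, since reads carried no molecular identifiers. The quasi-likelihood test of edgeR compared each protocol with the same 6 primed libraries, and "higher" or "lower" below means a Benjamini-Hochberg adjusted p under 0.05 over all genes tested. Errors of log2 fold changes are standard errors (SE) from the fit, of 3 against 6 libraries where primed cells are the reference. Because all 7 comparisons share the primed libraries, they are not independent, and differences between protocols were tested for TL-CDK8i against TL2i alone.

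FGF19 RNA was lower than in primed cells in cells of all 7 protocols, and FGF2 and FGF8 RNA in 5 of them, t2iLGöY, NHSM-v, LCDM (EPS), 4i/L/b and TL2i, with a 6.53 to 12.5-fold difference for FGF2. In E-NHSM and TL-CDK8i cells, FGF2 lay within the range of the primed libraries. Among the receptors, FGFR1 was 2.85-fold lower in t2iLGöY cells, where FGFR2 was 6.07-fold higher. FGFR3 was 16.3-fold higher in LCDM (EPS) cells. FGFR4 was 12.5-fold lower in NHSM-v cells and 14.4-fold lower in t2iLGöY cells, with near 1 CPM left in both.

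**Figure D1:**
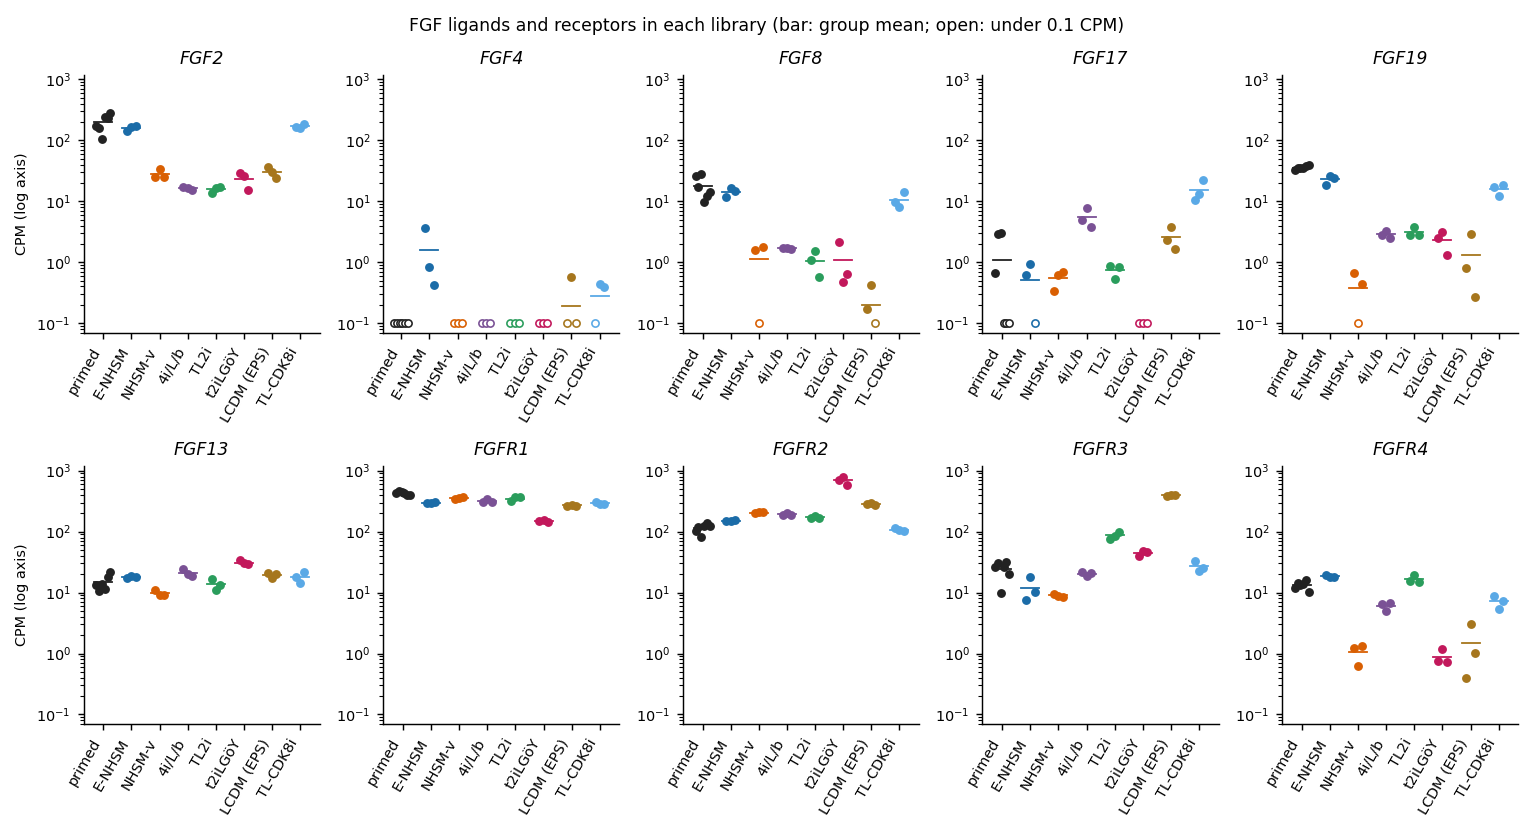
CPM (log axis) of each of the 10 genes in each library by group, with a bar at the group mean and open circles at the bottom for libraries under 0.1 CPM. FGF2 lies at 16.0 CPM on average in TL2i against 197 CPM in primed libraries, FGFR2 peaks in t2iLGöY at 691 CPM and FGFR3 in LCDM (EPS) at 396 CPM.

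The label of the cells was checked against markers of pluripotent cells and of other cell types, whose sums are given from the lowest to the highest library of a group. Summed over 10 pluripotent cell markers, primed libraries held 6248 to 7117 CPM and E-NHSM libraries 7278, 7311 and 7346 CPM, with DNMT3B, a DNA methyltransferase, as the most abundant marker in both and in TL-CDK8i. TL-CDK8i libraries held 1947, 2459 and 2663 CPM, TL2i libraries 546, 613 and 631 CPM and LCDM (EPS) libraries 455, 462 and 485 CPM. The sums were 199, 204 and 207 CPM in t2iLGöY, 189, 196 and 196 CPM in 4i/L/b and 132, 145 and 148 CPM in NHSM-v libraries. SOX2 was the most abundant marker in these 3 protocols and in LCDM (EPS), and LIN28A in TL2i. The sums of 6 protocols lay under every primed library, and the E-NHSM sums lay above every one. NANOG and PRDM14, pluripotency regulators, were at or under the floor in NHSM-v, 4i/L/b and t2iLGöY libraries, TDGF1, a Nodal co-receptor, in 4i/L/b and t2iLGöY, ZFP42 in NHSM-v and t2iLGöY, and NANOG in LCDM (EPS). PRDM14 was at least 912-fold lower in NHSM-v cells, and NANOG at least 846-fold lower in LCDM (EPS) cells. All 10 of these markers were lower in 5 protocols, 9 were lower in LCDM (EPS), where SOX2 was at 0.28 on the log2 scale, and E-NHSM cells had 4 higher and 2 lower of 10 tested, with SOX2 (0.55) and SALL4 (0.52) among the higher. The median log2 fold change of the list, with markers at the floor set to their bounds, was 0.18 in E-NHSM, -1.29 in TL-CDK8i, -5.39 in TL2i, -6.44 in 4i/L/b, -8.79 in NHSM-v, -8.76 in t2iLGöY and -6.96 in LCDM (EPS), where that of all genes tested lay between -0.02 and 0.07 over the protocols.

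Markers of neural cells moved in the same protocols. DCX, a microtubule protein of migrating neuroblasts, was higher in all 7 protocols, with log2 fold changes of 1.87 to 8.35, and neuronal tubulin TUBB3 was higher in 6, at 3.04 to 6.11. Of 10 neural markers, those called were 1 higher and 1 lower of 6 in E-NHSM, 4 higher and 1 lower of 7 in TL-CDK8i, 6 higher of 9 in TL2i, 7 higher of 9 in 4i/L/b, 9 higher and 1 lower of 10 in NHSM-v, 9 higher and 1 lower of 10 in t2iLGöY, and 10 higher of 10 in LCDM (EPS), with medians from -0.04 in E-NHSM to 6.60 in LCDM (EPS). SOX1, tested in 5 protocols, NEUROG2, tested in 3, and POU3F2, tested in 6, passed the filter on low counts only where they were higher, so these counts and medians partly follow the filter. The summed neural level was 2341 to 2654 CPM in primed libraries and 6665, 6749 and 6948 CPM in LCDM (EPS) libraries, which were the highest. It was 3914, 3981 and 4259 CPM in t2iLGöY, 3123, 3224 and 3298 CPM in 4i/L/b, 3042, 3065 and 3083 CPM in NHSM-v and 2854, 2859 and 3008 CPM in TL2i libraries. E-NHSM libraries held 1316, 1435 and 1466 CPM and TL-CDK8i libraries 2097, 2108 and 2200.3 CPM. NES, an intermediate filament gene that neural and other progenitors share, was the most abundant neural marker in each group, higher in LCDM (EPS) (0.35), lower in 4 protocols and not called in 4i/L/b and TL2i. NES alone averaged 2431 CPM in primed, 1293 CPM in E-NHSM and 1894 CPM in TL-CDK8i libraries, most of the sum in these groups. In LCDM (EPS) libraries it averaged 3087 CPM. SOX1, which marks early neural progenitors, was at or under the floor in primed libraries. PAX6, a neural progenitor factor, was higher in NHSM-v (2.72), t2iLGöY (5.50) and LCDM (EPS) cells (4.25).

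Fibroblast and mesenchyme markers, led by the collagen gene COL1A1 in each group but E-NHSM, summed to 1142 to 2424 CPM in primed libraries. They reached 11657, 14511 and 15149 CPM in 4i/L/b, 8766, 9846 and 11329 CPM in TL-CDK8i and 7886, 7897 and 8427 CPM in NHSM-v libraries. The sums were 2980.1, 4362 and 5778 CPM in TL2i, 3438, 3577 and 4049 CPM in t2iLGöY, 789, 889.8 and 1024 CPM in LCDM (EPS) and 456, 467 and 496 CPM in E-NHSM libraries. Sums thus lay above the primed range in 5 protocols and below it in LCDM (EPS) and E-NHSM. Of 10 such markers, those called were 1 higher and 5 lower of 8 in E-NHSM, 8 higher of 10 in TL-CDK8i, 8 higher and 1 lower of 10 in TL2i, 8 higher and 1 lower of 10 in 4i/L/b, 7 higher of 10 in NHSM-v, 3 higher and 2 lower of 8 in t2iLGöY, and 2 higher and 4 lower of 10 in LCDM (EPS), with medians from -1.86 in E-NHSM to 2.81 in 4i/L/b. POSTN, a matrix protein, was higher in 4 protocols, TWIST1 in 2 and PDGFRB in 3, PDGFRB was lower in 2, and THY1 was lower in 5 and higher in NHSM-v. DCN and LUM, fibroblast proteoglycans, were at or under the floor in primed, E-NHSM and t2iLGöY libraries, and both passed the filter only in the 5 protocols where they were higher, so those counts and medians partly follow the filter. Trophoblast and amnion markers summed to 3.87 to 14.7 CPM in primed and at most 237 CPM in any library, led by TFAP2A except in E-NHSM and TL-CDK8i, where KRT7 led, and CGA, a chorionic gonadotropin subunit, was at or under the floor in 7 of the 8 groups. The calls among 8 such markers were 2 lower of 4 in E-NHSM, 2 higher of 5 in TL-CDK8i, 4 higher of 7 in TL2i, 1 lower of 3 in 4i/L/b, 1 higher of 3 in NHSM-v, 2 higher and 1 lower of 4 in t2iLGöY, and 1 higher and 1 lower of 4 in LCDM (EPS), with medians from -1.62 in E-NHSM to 3.17 in TL-CDK8i. Endoderm markers summed to 11.2 to 21.3 CPM in primed and at most 85.9 CPM in any library, led by AFP in primed and SOX17 in TL2i, and AFP was lower in 5 protocols, FOXA2 in 2, and GATA6 higher in TL2i. The calls among 6 were 0 of 4 in E-NHSM by edgeR (0 higher and 1 lower at an unadjusted p under 0.05), 2 higher of 6 in TL-CDK8i, 4 higher and 1 lower of 6 in TL2i, 1 lower of 5 in 4i/L/b, 2 lower of 4 in NHSM-v, 2 lower of 3 in t2iLGöY, and 1 lower of 4 in LCDM (EPS), with medians from -3.60 in t2iLGöY to 3.16 in TL2i. In bulk RNA, fewer cells of a type and less RNA per cell cannot be told apart, and the part of these markers in the FGF results was not tested.

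**Figure D2:**
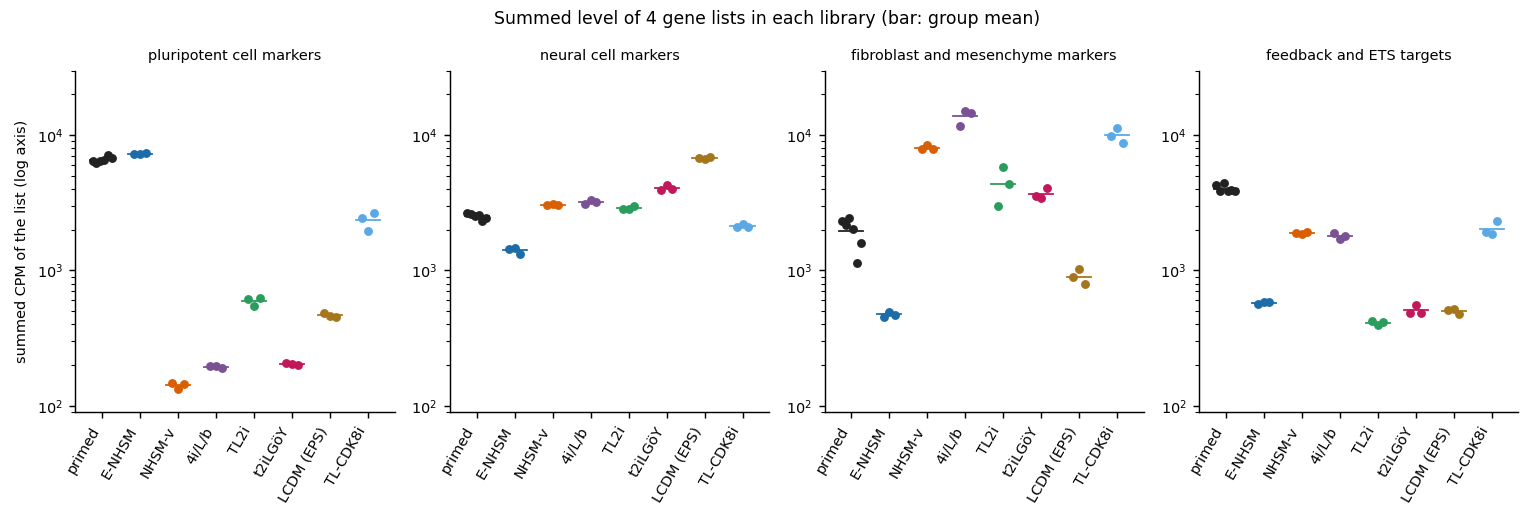
Summed CPM (log axis) of pluripotent, neural, and fibroblast and mesenchyme markers and of the feedback and ETS targets of the FGF pathway in each library by group, with a bar at the group mean. Pluripotent markers fall from a median of 6533 CPM in primed to 145 CPM in NHSM-v libraries, and the feedback and ETS targets from 3901 CPM in primed to 419 CPM in TL2i libraries.

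Against this background the FGF genes were counted in each comparison. In E-NHSM cells, 1 of 9 members tested was higher and 3 were lower, where 11.1% of the 13304 genes tested were higher and 15.1% lower. In TL-CDK8i cells, 1 of 9 members tested was higher and 3 were lower, where 22.3% of the 13359 genes tested were higher and 23.8% lower. These were the protocols with the fewest FGF genes called, and also those with the smallest shares of all genes tested called higher and lower. In 4i/L/b cells, 1 of 9 members tested was higher and 5 were lower, where 26.6% of the 13558 genes tested were higher and 29% lower. In TL2i cells, 2 of 9 members tested were higher and 4 were lower, where 25.6% of the 13808 genes tested were higher and 25.2% lower. In NHSM-v cells, 1 of 8 members tested was higher and 6 were lower, where 28% of the 13268 genes tested were higher and 30.6% lower. In those 3 protocols, the lower members included FGF2, FGF8, FGF19 and FGFR1. In LCDM (EPS) cells, 2 of 9 members tested were higher and 5 were lower, where 28.2% of the 13625 genes tested were higher and 28.9% lower. In t2iLGöY cells, 3 of 8 members tested were higher and 5 were lower, where 27.1% of the 13662 genes tested were higher and 27.2% lower, so that each member tested there was called.

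The median log2 fold change of the members tested, beside that of all genes tested, was -0.32 against 0.02 in E-NHSM, -2.15 against -0.02 in NHSM-v, -0.46 against 0.01 in 4i/L/b and -0.29 against 0.07 in TL2i. It was -2.28 against 0.02 in t2iLGöY, -0.66 against 0.03 in LCDM (EPS) and -0.27 against 0.02 in TL-CDK8i. FGF4 passed the filter on low counts in no comparison, and FGF17 did not pass it in NHSM-v and t2iLGöY, so these medians leave them out. Of the counts, that of E-NHSM ranged from 1 to 5 when 1 library was left out and was 1 without E-NHSM replicate 1, and that of TL-CDK8i ranged from 2 to 5 and was 2 without TL-CDK8i replicate 3. Without primed replicate J1, 2 members were called in E-NHSM.

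**Figure D3:**
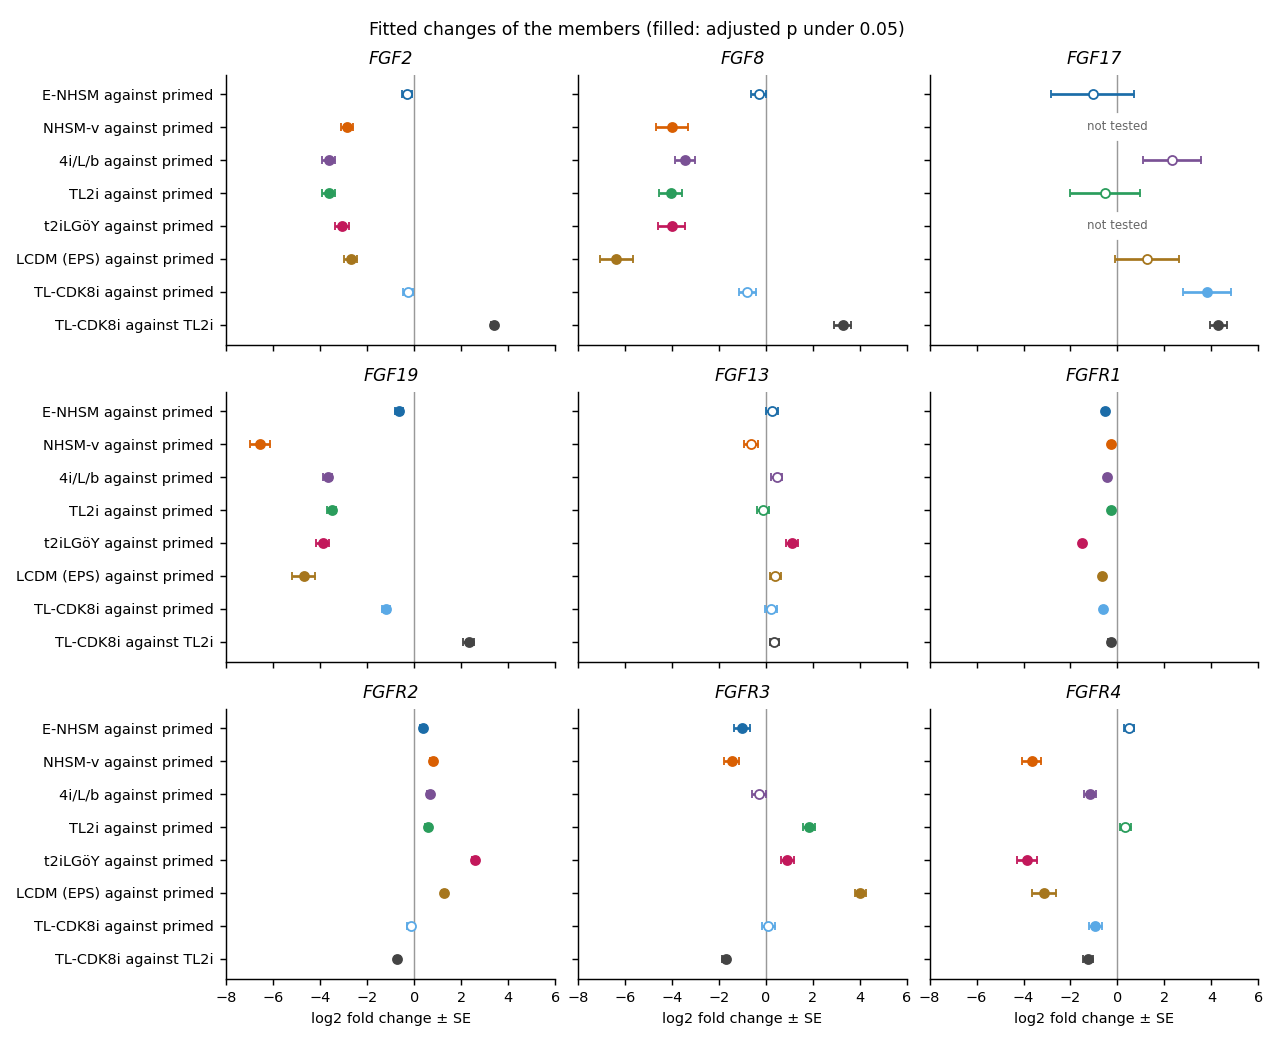
Log2 fold change with its SE of the 9 members tested, in each protocol against primed and in TL-CDK8i against TL2i; filled points have an adjusted p under 0.05. Against primed, FGF19 runs from -0.64 in E-NHSM to -6.58 in NHSM-v, and FGFR2 from -0.16 in TL-CDK8i to 2.60 in t2iLGöY.

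FGF2, basic FGF, is the ligand on which primed primate PSCs depend and which they also express. Primed libraries held 104 to 276 CPM with a median of 202, with 173, 161 and 104 CPM in the J columns and 241, 230.2 and 276 CPM in the K columns. FGF2 measured 166, 158 and 184 CPM in TL-CDK8i and 141, 168 and 169 CPM in E-NHSM libraries. Both of these groups lay within the primed range, overlapped the J columns and lay below every K column. FGF2 was at 36.1, 30.3 and 24.4 CPM in LCDM (EPS), 24.7, 33.7 and 24.7 CPM in NHSM-v and 28.7, 26.0 and 15.0 CPM in t2iLGöY libraries. It was at 17.2, 16.4 and 15.1 CPM in 4i/L/b and 13.7, 16.7 and 17.5 CPM in TL2i libraries. All 15 libraries of these 5 protocols lay below every primed, E-NHSM and TL-CDK8i library, and neighbours in the order of the 5 group means overlapped. FGF2 was lower by 12.5-fold in 4i/L/b (log2 fold change -3.65 ± 0.28, adjusted p = 1.3e-07) and by 6.53-fold in LCDM (EPS) (log2 fold change -2.71 ± 0.27, adjusted p = 1.2e-06), in 3 of 3 libraries each. The folds were 12.4 in TL2i, 8.33 in t2iLGöY and 7.25 in NHSM-v, with adjusted p of 1.5e-07, 5.3e-07 and 3.1e-07.

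In E-NHSM cells FGF2 was not called (log2 fold change -0.32 ± 0.20, adjusted p = 0.28), and without primed replicate J3 it was lower, at -0.44 (adjusted p = 0.027, range over the alternatives 1.7e-05 to 0.61). Against the J columns alone, the FGF2 log2 fold change in E-NHSM cells was 0.12 (adjusted p = 0.61), and against the K columns alone -0.65 (adjusted p = 1.7e-05). FGF2 was not called in TL-CDK8i cells either (log2 fold change -0.27 ± 0.22, adjusted p = 0.34), and was lower without J3, at -0.40 (adjusted p = 0.044, range 0.00033 to 0.64). With the J columns alone it was 0.18 in TL-CDK8i (adjusted p = 0.41), and with the K columns alone -0.60 (adjusted p = 0.00033). In these 2 protocols FGF2 was thus called lower against the K columns and not called against the J columns. The genes most like FGF2 over the 8 group means, among 9958 genes, were PHC1 (r = 0.989) and ST6GAL1 (r = 0.989). NUDT6 overlaps FGF2 in the rhesus RefSeq annotation, and it held 0 to 46 counts in any library, where FGF2 held at least 135.

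FGF4 is a ligand of the early embryo, known from mouse as a target of OCT4 and SOX2 in the inner cell mass. It had 0 counts in all 6 primed libraries and in those of t2iLGöY, TL2i, NHSM-v and 4i/L/b. E-NHSM libraries held 76, 15 and 8 FGF4 counts, or 3.58, 0.834 and 0.431 CPM. All 3 E-NHSM libraries were over the floor, and replicate 1 held most of the counts. Against the floor of 3 counts per primed library, the E-NHSM mean was at least 5.33-fold higher, and at least 2.09-fold higher without replicate 1. FGF4 held 0, 4 and 4 counts in TL-CDK8i and 0, 12 and 0 counts in LCDM (EPS) libraries. At this depth, FGF4 was not detectable in most groups, and the test reported left it out. Of the alternatives that tested it, it was called higher in E-NHSM with DESeq2 (adjusted p = 0.0032), without a filter on low counts (0.01) and without E-NHSM replicate 3 (0.023), over a range of 0.0032 to 0.023. Without the filter it was also called higher in TL-CDK8i against TL2i (adjusted p = 0.041, range 0.041 to 0.074). In the annotation FGF4 lies between FGF3 and FGF19, and FGF3 held at most 11 counts in any library.

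FGF8 is a ligand of the gastrulating embryo and of the midbrain-hindbrain organizer. Primed libraries held 9.59 to 28.3 CPM with a median of 15.5, E-NHSM libraries 12.0, 16.4 and 14.9 CPM and TL-CDK8i libraries 9.87, 7.91 and 14.2 CPM. These 3 groups overlapped one another, and FGF8 was called in neither protocol, at -0.31 ± 0.32 (adjusted p = 0.53) in E-NHSM and -0.78 ± 0.36 (adjusted p = 0.087) in TL-CDK8i on the log2 scale. Without primed replicate K1, FGF8 was lower in TL-CDK8i, at -0.89 (adjusted p = 0.04, range 0.0087 to 0.57), and against the J columns alone, at -1.18 (adjusted p = 0.0087), and was not called against the K columns alone, at -0.20 (adjusted p = 0.57). In E-NHSM the FGF8 log2 fold change was 0.28 against the K columns alone (adjusted p = 0.46) and -0.72 against the J columns alone (adjusted p = 0.064, range 0.064 to 0.8). FGF8 was at 1.73, 1.70 and 1.64 CPM in 4i/L/b, 1.58, 0 and 1.76 CPM in NHSM-v and 1.08, 1.51 and 0.566 CPM in TL2i libraries. It was at 2.11, 0.467 and 0.650 CPM in t2iLGöY and 0.171, 0.424 and 0 CPM in LCDM (EPS) libraries. Each of these 15 libraries lay below every primed library. LCDM (EPS), the group with the lowest mean, did not overlap TL2i, the next in mean. It did overlap NHSM-v, where 1 library held no FGF8 count. FGF8 was lower by 16.6-fold in TL2i (log2 fold change -4.05 ± 0.48, adjusted p = 1.1e-05) and by 10.8-fold in 4i/L/b (log2 fold change -3.43 ± 0.43, adjusted p = 1.4e-05), in 3 of 3 libraries each.

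In NHSM-v the FGF8 log2 fold change was -4.00 ± 0.68 (adjusted p = 0.00012), in 3 of 3 libraries. In t2iLGöY cells it was -4.00 ± 0.57 (adjusted p = 2.9e-05), and -4.94 without t2iLGöY replicate 1, the library with the most FGF8 of its group. In LCDM (EPS) cells it was -6.37 ± 0.69 (adjusted p = 2.8e-06), and -7.55 without LCDM (EPS) replicate 2. At these few counts the size of the FGF8 difference rested on single libraries, and its direction did not. Over the group means, GCLM (r = 0.986) and MFGE8 (r = 0.975) were most like FGF8.

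FGF17 belongs to the same subfamily as FGF8 and is known from the midbrain-hindbrain region. The primed J columns held 0.670, 2.91 and 3.00 CPM, and the K columns held none in any of the 3 libraries. FGF17 measured 10.3, 13.0 and 22.3 CPM in TL-CDK8i, 4.90, 7.90 and 3.85 CPM in 4i/L/b and 2.33, 3.82 and 1.62 CPM in LCDM (EPS) libraries. TL-CDK8i libraries lay above all others, and 4i/L/b libraries above all primed ones. FGF17 was 14.1-fold higher in TL-CDK8i cells (log2 fold change 3.81 ± 1.03, adjusted p = 0.0072), in 3 of 3 libraries. The call was lost with DESeq2 (adjusted p = 0.086) and without TL-CDK8i replicate 3 (adjusted p = 0.054), within a range of 7.1e-06 to 0.086. Without primed replicate J2 the log2 fold change was 4.50, and without J3 4.45. Against the J columns alone it was 2.76 (adjusted p = 0.0025), the smallest value among the alternatives, and the K columns alone, with no FGF17 count, give no size. FGF17 was not called in 4i/L/b (log2 fold change 2.33 ± 1.24, adjusted p = 0.13) or in LCDM (EPS) (log2 fold change 1.27 ± 1.36, adjusted p = 0.45). It was higher in 4i/L/b with all groups in one fit, at 2.39 (adjusted p = 0.031, range 6.6e-05 to 0.33). Tests against the K columns alone called it higher in 4i/L/b (adjusted p = 6.6e-05) and LCDM (EPS) (adjusted p = 0.00082, range 0.00082 to 0.79), but with no count in those columns they give no size. Against the J columns alone the log2 fold changes were 1.32 in 4i/L/b and 0.27 in LCDM (EPS), without primed replicate J2 2.99 and 1.88, and without J3 2.97 and 1.89, none of them called. TL2i libraries held 0.882, 0.524 and 0.849 CPM, NHSM-v libraries 0.338, 0.617 and 0.704 CPM and E-NHSM libraries 0.612, 0.945 and 0 CPM, and t2iLGöY libraries held no FGF17 count. These 4 groups overlapped the primed libraries. FGF17 was tested in TL2i (-0.52) and E-NHSM (-1.05, and -1.79 to -0.48 when 1 library was left out) without a call. Against the J columns alone it was at -1.52 in TL2i and -2.06 in E-NHSM, neither of them called. In t2iLGöY, which the test reported left out, FGF17 was called lower with DESeq2 (adjusted p = 0.021) and with all groups in one fit (0.0034), over a range of 0.0034 to 0.12. The patterns most like that of FGF17 were those of RASA2 (r = 0.940) and BEND7 (r = 0.911).

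FGF19 is an endocrine ligand that signals mainly through FGFR4 with β-Klotho, and it is expressed by primed human PSCs. Primed libraries held 32.4 to 38.7 CPM with a median of 35.3, a narrow range with J and K columns intermixed. FGF19 measured 18.3, 26.0 and 24.5 CPM in E-NHSM and 16.9, 12.0 and 18.8 CPM in TL-CDK8i libraries. Both groups lay below every primed library and overlapped each other. FGF19 was at 2.79, 3.73 and 2.83 CPM in TL2i, 2.79, 3.28 and 2.50 CPM in 4i/L/b and 2.52, 3.14 and 1.30 CPM in t2iLGöY libraries. It was at 0.797, 2.92 and 0.271 CPM in LCDM (EPS) and 0.677, 0 and 0.440 CPM in NHSM-v libraries. None of these 15 libraries reached the lowest TL-CDK8i library, and 1 NHSM-v library held no FGF19 count.

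FGF19 was lower in each protocol, least in E-NHSM (1.56-fold; log2 fold change -0.64 ± 0.17, adjusted p = 0.0088) and next in TL-CDK8i (2.32-fold; log2 fold change -1.22 ± 0.18, adjusted p = 6e-05), in 3 of 3 libraries each. The E-NHSM call was lost without E-NHSM replicate 1 (log2 fold change -0.50, adjusted p = 0.078), with all groups in one fit (adjusted p = 0.16) and against the J columns alone (adjusted p = 0.054), over a range of 0.0028 to 0.16. The FGF19 log2 fold change was -3.51 ± 0.20 in TL2i, -3.69 ± 0.20 in 4i/L/b and -3.90 ± 0.28 in t2iLGöY, with adjusted p of 6e-09, 3.4e-09 and 2.4e-08. It was -6.58 ± 0.42 in NHSM-v (adjusted p = 4.7e-09) and -7.17 without NHSM-v replicate 1, the library with the most FGF19 of its group. In LCDM (EPS) it was -4.70 ± 0.49 (adjusted p = 1.8e-06) and -6.02 without LCDM (EPS) replicate 2, which held the most FGF19, FGF17, FGF8, FGF4 and FGFR4 of its group. Closest to FGF19 in pattern were C1D (r = 0.995) and SFRP1 (r = 0.984), the second a secreted Wnt inhibitor.

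FGF13 is an FGF homologous factor, which is not secreted and is known to bind voltage-gated sodium channels. Its levels were 10.8 to 21.7 CPM with a median of 13.4 in primed and 33.7, 30.0 and 29.7 CPM in t2iLGöY libraries, and the t2iLGöY libraries lay above those of every other group. FGF13 was 2.15-fold higher in t2iLGöY (log2 fold change 1.11 ± 0.24, adjusted p = 0.0013), in 3 of 3 libraries. In the other 6 protocols FGF13 was not called, with log2 fold changes of -0.63 to 0.46 and groups that overlapped the primed libraries. Without primed replicate K3, the primed library with the most FGF13, it was higher in 4i/L/b, at 0.64 (adjusted p = 0.03, range 0.022 to 0.35), as it was with all groups in one fit (0.033) and against the J columns alone (0.022). In NHSM-v it was lower with all groups in one fit (adjusted p = 0.014) and against the K columns alone, at -0.82 (adjusted p = 0.026, range 0.014 to 0.38), and in LCDM (EPS) it was higher against the J columns alone, at 0.67 (adjusted p = 0.034, range 0.034 to 0.48). Closest to FGF13 in pattern were FAM114A2 (r = 0.924) and BPGM (r = 0.905). MIR504 and LOC114674959 overlap FGF13 in the annotation. MIR504 held at most 1 count in any library. LOC114674959 is not among the genes counted, so its reads could not be examined.

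FGFR1 is the receptor through which the epiblast and primed PSCs are known to respond to FGF2. Primed libraries held 399 to 458 CPM with a median of 427. FGFR1 measured 349, 352 and 364 CPM in NHSM-v, 314, 368 and 366 CPM in TL2i and 305, 345 and 305 CPM in 4i/L/b libraries. It measured 298, 291 and 305 CPM in E-NHSM, 307, 279 and 285 CPM in TL-CDK8i and 264, 276 and 267 CPM in LCDM (EPS) libraries. All libraries of the 7 protocols lay below the lowest primed library, and t2iLGöY libraries, at 147, 152 and 141 CPM, lay below all others. From NHSM-v down to TL-CDK8i, neighbouring groups overlapped. FGFR1 was lower in each protocol, by 1.22 to 1.58-fold in 6 protocols and 2.85-fold in t2iLGöY (log2 fold change -1.51 ± 0.08, adjusted p = 9.2e-10), in 3 of 3 libraries each. The smallest differences were those of NHSM-v (log2 fold change -0.29 ± 0.07, adjusted p = 0.0027) and TL2i (log2 fold change -0.29 ± 0.08, adjusted p = 0.0081). The TL2i call was lost without TL2i replicate 1, at -0.21 (adjusted p = 0.06, range 0.00037 to 0.06). The log2 fold changes were -0.52 ± 0.07 in E-NHSM, -0.61 ± 0.08 in TL-CDK8i, -0.66 ± 0.07 in LCDM (EPS) and -0.46 ± 0.08 in 4i/L/b, with adjusted p of 3e-05, 2.1e-05, 1.8e-06 and 0.00014. Among other genes, FGFR1 was most like GRWD1 (r = 0.966) and SMPD4 (r = 0.948).

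FGFR2 is made in an epithelial and a mesenchymal splice form with different ligands, and is known from the primitive endoderm and trophoblast of the mouse embryo. The counts are per gene and do not tell the splice forms apart. Primed libraries held 82.7 to 138 CPM with a median of 122, and TL-CDK8i libraries 114, 106 and 103 CPM. FGFR2 measured 149.7, 148 and 158 CPM in E-NHSM, 167, 184 and 169 CPM in TL2i and 184, 203 and 186 CPM in 4i/L/b libraries. It lay within the primed range in TL-CDK8i and above it in the other groups named. FGFR2 measured 201, 207 and 207 CPM in NHSM-v, 279, 291 and 278 CPM in LCDM (EPS) and 706, 774 and 593 CPM in t2iLGöY libraries. In this order of means, only the pair TL-CDK8i and primed and the pair 4i/L/b and NHSM-v overlapped among neighbouring groups.

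FGFR2 was 6.07-fold higher in t2iLGöY (log2 fold change 2.60 ± 0.13, adjusted p = 3.6e-10) and 2.44-fold higher in LCDM (EPS) (log2 fold change 1.29 ± 0.12, adjusted p = 8e-07), in 3 of 3 libraries each. It was higher by 1.74-fold in NHSM-v, 1.60-fold in 4i/L/b and 1.49-fold in TL2i, with adjusted p of 6.7e-05, 0.00052 and 0.0022, again in 3 of 3 libraries. In E-NHSM, FGFR2 was 1.31-fold higher (log2 fold change 0.38 ± 0.13, adjusted p = 0.033). This call was lost without primed replicate J1 (adjusted p = 0.064), and without E-NHSM replicate 1 (0.087), replicate 2 (0.08) or replicate 3 (0.13), and against the K columns alone (0.05), over a range of 0.0028 to 0.13. FGFR2 was not called in TL-CDK8i (log2 fold change -0.16 ± 0.14, adjusted p = 0.38), where the log2 fold change was 0.04 against the J columns alone and -0.32, called lower, against the K columns alone (adjusted p = 0.013, range 0.013 to 0.82). The gene most like FGFR2 was EFNA4 (r = 0.963), an ephrin ligand.

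FGFR3 is known from growth-plate cartilage and from neural progenitors. Primed libraries held 10 to 32.1 CPM with a median of 26.0, and the lowest was replicate J3. FGFR3 measured 383, 399.6 and 406 CPM in LCDM (EPS), 76.1, 84.0 and 100.2 CPM in TL2i and 39.9, 48.4 and 45.8 CPM in t2iLGöY libraries. These groups did not overlap one another or any other group. FGFR3 measured 33.0, 22.7 and 25.2 CPM in TL-CDK8i, 21.4, 18.8 and 20.6 CPM in 4i/L/b and 7.49, 18.0 and 10.3 CPM in E-NHSM libraries. The first 2 of these lay within or near the primed range, and the E-NHSM libraries overlapped its lower end. NHSM-v libraries, at 9.59, 8.95 and 8.54 CPM, lay just below the lowest primed library.

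FGFR3 was 16.3-fold higher in LCDM (EPS) (log2 fold change 4.03 ± 0.22, adjusted p = 2.4e-09), in 3 of 3 libraries. It was 3.57-fold higher in TL2i (log2 fold change 1.84 ± 0.25, adjusted p = 3.3e-05) and 1.88-fold higher in t2iLGöY (log2 fold change 0.91 ± 0.27, adjusted p = 0.0094), in 3 of 3 libraries each. In NHSM-v, FGFR3 was 2.72-fold lower (log2 fold change -1.44 ± 0.32, adjusted p = 0.0012), in 3 of 3 libraries. In E-NHSM, FGFR3 was 2.04-fold lower (log2 fold change -1.03 ± 0.33, adjusted p = 0.03), with 3 of 3 libraries below the primed median and 1 below the lowest primed library. The E-NHSM call was lost without primed replicate J1 (adjusted p = 0.052), J2 (0.058) or K2 (0.063), without E-NHSM replicate 1 (0.17) or replicate 3 (0.13), and against the J columns alone (0.11), over a range of 0.00069 to 0.17. FGFR3 was not called in 4i/L/b (log2 fold change -0.29 ± 0.29, adjusted p = 0.4) or TL-CDK8i (log2 fold change 0.11 ± 0.28, adjusted p = 0.79). Among other genes, FGFR3 was most like DUSP12 (r = 0.978) and BRCA1 (r = 0.977).

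FGFR4 is the main receptor of FGF19. Primed libraries held 10.4 to 16.0 CPM with a median of 13.4, E-NHSM libraries 19.5, 18.0 and 18.2 CPM and TL2i libraries 15.5, 19.7 and 15.1 CPM. E-NHSM libraries lay above the primed range and TL2i libraries at its upper end, and FGFR4 was not called in E-NHSM (log2 fold change 0.48 ± 0.23, adjusted p = 0.13) or TL2i (log2 fold change 0.34 ± 0.22, adjusted p = 0.21). FGFR4 measured 8.95, 5.35 and 7.15 CPM in TL-CDK8i and 6.53, 4.98 and 6.64 CPM in 4i/L/b libraries. It measured 0.398, 3.02 and 1.03 CPM in LCDM (EPS), 1.24, 0.617 and 1.32 CPM in NHSM-v and 0.750, 1.20 and 0.723 CPM in t2iLGöY libraries. The last 3 groups overlapped one another and lay below the rest, and all 5 lay below every primed library. FGFR4 was 14.4-fold lower in t2iLGöY (log2 fold change -3.84 ± 0.42, adjusted p = 1.9e-06) and 12.5-fold lower in NHSM-v (log2 fold change -3.65 ± 0.41, adjusted p = 1.9e-06), in 3 of 3 libraries each. In LCDM (EPS) its log2 fold change was -3.13 ± 0.53 (adjusted p = 0.00017), and -4.16 without LCDM (EPS) replicate 2. FGFR4 was 2.24-fold lower in 4i/L/b (log2 fold change -1.17 ± 0.27, adjusted p = 0.0023) and 1.91-fold lower in TL-CDK8i (log2 fold change -0.94 ± 0.28, adjusted p = 0.013). The TL-CDK8i call was lost without TL-CDK8i replicate 2 (adjusted p = 0.084) or replicate 3 (adjusted p = 0.057), over a range of 0.0067 to 0.084. The genes most like FGFR4 were RBM15 (r = 0.988) and PGM1 (r = 0.975).

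Receptor genes differ in length, so the ratios of their counts within a library are given only for how they changed across groups. The ratio of FGFR2 to FGFR1 counts was 0.186 to 0.342 with a median of 0.277 in primed libraries. It was 4.19, 4.81 and 5.08 in t2iLGöY and 1.04, 1.05 and 1.06 in LCDM (EPS) libraries, 17.4 and 3.92 times the primed geometric mean. In each of the other 5 protocols the ratio lay above every primed library, at 1.38 times the primed mean in TL-CDK8i and 2.24 times in 4i/L/b. The ratio of FGFR3 to FGFR1 was 0.0225 to 0.0795 with a median of 0.0609 in primed and 1.45, 1.45 and 1.52 in LCDM (EPS) libraries, 27.7 times the primed mean. It was 5.72 times the primed mean in t2iLGöY, 4.67 times in TL2i and 0.479 times in NHSM-v. The ratio of FGFR4 to FGFR1 was 2.02 times the primed mean in E-NHSM, 0.192 times in t2iLGöY, 0.130 times in LCDM (EPS) and 0.0920 times in NHSM-v. The LCDM (EPS) value was 0.0783 times without LCDM (EPS) replicate 2 and 0.211 times without replicate 1. These ratios were not tested.

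**Figure D4:**
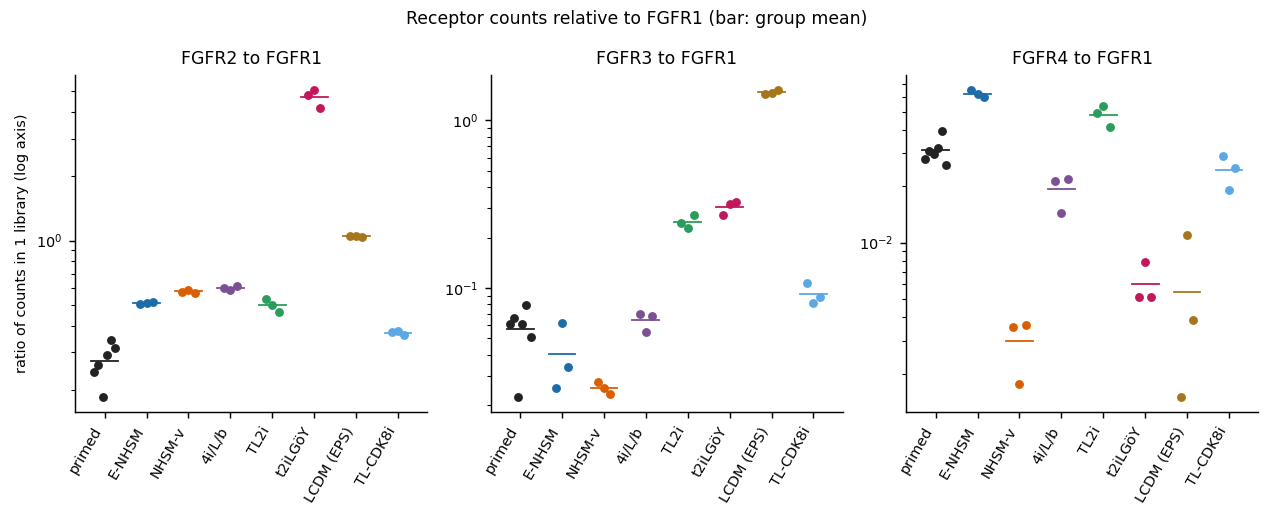
Ratio of the counts of FGFR2, FGFR3 and FGFR4 to those of FGFR1 within each library (log axis) by group, with a bar at the group mean. FGFR2 to FGFR1 is at 4.19, 4.81 and 5.08 in the t2iLGöY libraries, and FGFR3 to FGFR1 at 1.45, 1.45 and 1.52 in the LCDM (EPS) libraries.

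TL-CDK8i and TL2i both used tamoxifen and LIF and differed in a MEK and a GSK3β inhibitor against a CDK8/19 inhibitor, so their comparison asks what differs with the inhibitors. In TL-CDK8i against TL2i, 4 of 9 members tested were higher and 4 were lower, where 31.5% of the 13729 genes tested were higher and 33.3% lower, and the median was 0.36 for the members and -0.04 for all genes. The 4 secreted ligands tested were all higher in TL-CDK8i, in 3 of 3 libraries each, and all 4 receptors were lower. FGF2 was 10.4-fold higher (log2 fold change 3.38 ± 0.12, adjusted p = 6.5e-11) and FGF8 9.69-fold higher (log2 fold change 3.28 ± 0.36, adjusted p = 2.8e-06). FGF17 was 19.6-fold higher (log2 fold change 4.29 ± 0.35, adjusted p = 1.9e-07) and FGF19 4.98-fold higher (log2 fold change 2.32 ± 0.24, adjusted p = 1.6e-06). FGFR3 was 3.28-fold lower in TL-CDK8i (log2 fold change -1.71 ± 0.15, adjusted p = 3.3e-07), FGFR4 2.40-fold lower (log2 fold change -1.26 ± 0.21, adjusted p = 0.00015) and FGFR2 1.64-fold lower (log2 fold change -0.72 ± 0.09, adjusted p = 1.2e-05). None of the libraries of the 2 protocols overlapped for these 7 genes. FGFR1 was 1.23-fold lower (log2 fold change -0.30 ± 0.10, adjusted p = 0.015), a call that was lost without TL2i replicate 2 (adjusted p = 0.068) or 3 (0.096) and without TL-CDK8i replicate 2 (0.066) or 3 (0.055), over a range of 0.0043 to 0.096. FGF13 was not called (log2 fold change 0.36 ± 0.19, adjusted p = 0.12), and was higher without TL2i replicate 1 (adjusted p = 0.036) or TL-CDK8i replicate 2 (0.041), over a range of 0.036 to 0.39. The markers differed between these protocols too, in the order pluripotent, neural, fibroblast, trophoblast and amnion, and endoderm, with 8 higher of 10 tested (median 3.97), 2 higher and 7 lower of 9 tested (median -1.39), 5 higher and 1 lower of 10 tested (median 0.21), 1 higher and 5 lower of 7 tested (median -1.90) and 1 higher and 5 lower of 6 tested (median -1.28), and their part in the result was not tested.

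The primed J and K columns were also compared with each other. By edgeR, in the K against the J columns, 1 of 8 members tested was higher and 0 were lower, where 2.03% of the 12559 genes tested were higher and 1.7% lower, with a median of 0.16 for the members and 0.00 for all genes. That gene was FGF2, 1.70-fold higher in the K columns (log2 fold change 0.76 ± 0.15, adjusted p = 0.0063), in 3 of 3 libraries with no overlap. The call was lost without primed replicate K3 (adjusted p = 0.064, range 2e-09 to 0.064). At an unadjusted p under 0.05, 2 members were higher, FGF2 and FGFR2, and 1 was lower, FGF8, where 9.2% of all genes tested were higher and 7.85% lower. DESeq2 called 1 member higher, FGF2, and 1 lower, FGF17, after adjustment, and 2.73% of the 13020 genes it gave an adjusted p higher and 2.61% lower. FGF8 was at -1.001 ± 0.29 (adjusted p = 0.068) and FGFR2 at 0.34 ± 0.13 (adjusted p = 0.2) on the log2 scale, again with no overlap. FGF8 was called without a filter on low counts (adjusted p = 0.037, range 0.037 to 0.25) and FGFR2 with all groups in one fit (adjusted p = 0.02, range 0.02 to 0.48). The test reported left FGF17 out, and its J mean was at least 9.02-fold over the floor of the K columns. FGF17 was called lower in K with DESeq2 (adjusted p = 0.003) and with all groups in one fit (0.00087), and not by the other alternatives that tested it, over a range of 0.00087 to 0.26. Among the marker lists, 4 of 10 pluripotent markers tested were higher in K (median 0.17), 1 of 8 fibroblast markers was lower, and edgeR called 0 of 6 neural (1 higher and 1 lower at an unadjusted p under 0.05), 0 of 2 trophoblast and amnion (0 higher and 0 lower) and 0 of 2 endoderm markers (0 higher and 1 lower), and their part in the FGF2 difference was not tested.

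Other genes of the FGF pathway were described by lists. Of 16 feedback and ETS targets of ERK signaling, 15 were lower in E-NHSM and 14 each in TL2i, t2iLGöY and LCDM (EPS), and the rest were not called, with medians of -2.40 in E-NHSM, -2.79 in TL2i, -2.19 in t2iLGöY and -2.36 in LCDM (EPS). In NHSM-v 3 were higher and 9 lower, in 4i/L/b 1 and 10, and in TL-CDK8i 1 and 9, with medians of -0.60 in NHSM-v, -0.67 in 4i/L/b and -0.84 in TL-CDK8i. The summed level was 3843 to 4404 CPM in primed, 564, 582 and 585 CPM in E-NHSM, 398, 419 and 419.6 CPM in TL2i and 1876, 1909.5 and 2303 CPM in TL-CDK8i libraries. In E-NHSM cells FGF2 and FGF8 lay within the primed range, FGF19, FGFR1 and FGFR3 were lower and FGFR2 was higher. FGF2 was also lower there against the K columns alone. The part of these levels in the low targets was not tested. SPRY2 and SPRY4, inhibitors of the pathway, DUSP6, an ERK phosphatase, the ETS factors ETV1 and ETV4, and the immediate early genes EGR1 and FOS were lower in all 7 protocols. DUSP6 ranged from -5.16 to -0.57, SPRY4 from -5.18 to -1.14 and ETV4 from -7.36 to -1.18 on the log2 scale. DUSP4 was lower in 3 protocols and higher in 2, NHSM-v (0.98) and 4i/L/b (1.28), and SPRY3 lay at -1.13 to 0.15 with no call. Between TL-CDK8i and TL2i, which holds a MEK and a GSK3β inhibitor, 15 of 16 were higher in TL-CDK8i, with a median of 2.02. Of all genes tested there, 31.5% were higher. The part of any inhibitor in this difference was not tested.

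The adaptors and the RAS-MAPK core, which carry the signal from the receptors to ERK, had 2 higher and 1 lower of 20 in E-NHSM, 7 higher and 7 lower of 20 in TL-CDK8i, 4 higher and 5 lower of 20 in TL2i, 2 higher and 4 lower of 20 in 4i/L/b, 6 higher and 5 lower of 20 in NHSM-v, 5 higher and 4 lower of 20 in t2iLGöY, and 7 higher and 4 lower of 20 in LCDM (EPS), with medians from -0.10 in 4i/L/b to 0.13 in NHSM-v. MAPK3, which encodes ERK1, was higher in all 7 protocols (0.64 to 1.13), the adaptor SHC1 lower in all 7 (-2.52 to -0.21), the phospholipase PLCG1 higher in 6 and the MEK1 gene MAP2K1 lower in 6. The 5 regulators of receptor splicing had 1 higher and 3 lower of 5 in E-NHSM, 1 higher and 4 lower of 5 in TL-CDK8i, 1 higher and 4 lower of 5 in TL2i, 1 higher and 4 lower of 5 in 4i/L/b, 1 higher and 4 lower of 5 in NHSM-v, 1 higher and 4 lower of 5 in t2iLGöY, and 1 higher and 3 lower of 5 in LCDM (EPS), with medians from -1.78 in NHSM-v to -0.36 in E-NHSM. ESRP1 and ESRP2, which favor the epithelial splice form of FGFR2, were at or under the floor in NHSM-v, at least 488-fold and 259-fold lower. In t2iLGöY, where FGFR2 was highest, ESRP1 was at -8.02 and ESRP2 at -6.98 on the log2 scale, and in E-NHSM ESRP1 was higher (0.47) and ESRP2 lower (-0.94). PTBP1 was lower in all 7 protocols (-0.91 to -0.29) and RBFOX2 higher in 6 (0.47 to 1.02).

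Heparan sulfate carriers and enzymes, which provide the cofactor of FGF binding, had 2 higher and 10 lower of 20 in E-NHSM, 13 higher and 2 lower of 20 in TL-CDK8i, 10 higher and 4 lower of 20 in TL2i, 14 higher and 3 lower of 19 in 4i/L/b, 15 higher and 2 lower of 20 in NHSM-v, 9 higher and 3 lower of 19 in t2iLGöY, and 6 higher and 8 lower of 20 in LCDM (EPS), with medians from -0.37 in E-NHSM to 1.24 in NHSM-v. GPC3, a glypican, was higher in all 7 protocols (0.72 to 2.54), and GPC4 was lower in 6, TL-CDK8i excepted. The sulfatase gene SULF1 was higher in 5 protocols and SULF2 lower in 5, with -2.77 in E-NHSM, and higher in NHSM-v and TL-CDK8i. FGF co-receptors and binding proteins had 3 lower of 6 in E-NHSM, 1 higher of 5 in TL-CDK8i, 2 higher and 2 lower of 7 in TL2i, 3 higher and 1 lower of 6 in 4i/L/b, 3 higher and 2 lower of 6 in NHSM-v, 2 higher and 3 lower of 7 in t2iLGöY, and 1 higher and 2 lower of 7 in LCDM (EPS), with medians from -0.92 in E-NHSM to 0.54 in NHSM-v. ANOS1, an extracellular protein that modulates FGFR1 signaling, was lower in 6 protocols (-5.89 to -2.14), was at 0.04 in TL-CDK8i, and led its list in primed libraries with 685 CPM on average. FGFBP3, which releases FGFs from the matrix, was higher in 6 protocols, most in TL-CDK8i (5.17). FLRT3 was higher in 3 protocols and lower in E-NHSM, and FLRT2 higher in NHSM-v and lower in 3.

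The 16 other FGF ligand genes had 1 lower of 8 in E-NHSM, 1 higher and 1 lower of 8 in TL-CDK8i, 1 higher and 3 lower of 9 in TL2i, 1 higher and 4 lower of 9 in 4i/L/b, 2 higher and 2 lower of 7 in NHSM-v, 2 higher and 4 lower of 9 in t2iLGöY, and 1 higher and 5 lower of 8 in LCDM (EPS), with medians from -1.71 in LCDM (EPS) to 1.15 in 4i/L/b. FGF6 was lower in 6 protocols, by at least 40.1-fold in NHSM-v and at least 58.7-fold in t2iLGöY, where it was at or under the floor, and FGF16 was lower in 3. FGF12 and FGF11, homologous factors like FGF13, were lower in 5 and 4 protocols and higher in 1 each, NHSM-v for FGF12 (0.50) and TL2i for FGF11 (1.61). FGF8 and FGF17 are ligands of the midbrain-hindbrain organizer, whose 10 other listed genes had 1 lower of 4 in E-NHSM, 3 higher and 1 lower of 6 in TL-CDK8i, 3 higher and 1 lower of 6 in TL2i, 2 higher and 2 lower of 6 in 4i/L/b, 5 higher and 1 lower of 8 in NHSM-v, 3 higher of 6 in t2iLGöY, and 5 higher and 1 lower of 9 in LCDM (EPS), with medians from -1.05 in E-NHSM to 3.68 in NHSM-v. EN2 and PAX2, tested in 3 protocols each, and WNT1, tested in 6, passed the filter on low counts only where they were higher, so these counts and medians partly follow the filter. WNT1 was the most abundant of them in t2iLGöY libraries at 668 CPM on average, where FGF8 was low and FGF17 had no count. EN1 was higher in TL-CDK8i (3.83), the protocol with the most FGF17, and in NHSM-v (3.26), OTX2 was lower in 4 protocols and higher in t2iLGöY (1.32), and GBX2 was lower in 3 and higher in LCDM (EPS) (1.51). Primitive streak genes had 1 lower of 5 in E-NHSM, 2 higher and 1 lower of 6 in TL-CDK8i, 1 higher and 3 lower of 5 in TL2i, 1 higher and 2 lower of 6 in 4i/L/b, 1 higher and 3 lower of 5 in NHSM-v, 1 higher and 3 lower of 5 in t2iLGöY, and 1 higher and 3 lower of 6 in LCDM (EPS), with medians from -3.96 in TL2i to 0.97 in TL-CDK8i. NODAL was lower in 6 protocols, E-NHSM excepted (0.02), EOMES was lower in 5 and higher in TL-CDK8i (2.51), WNT3 was higher in 6, and TBX6 lay at -1.59 to 1.07 with no call.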

How the data were processed

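Starting from single reads of strand-specific mRNA libraries, the authors deposited raw counts by gene symbol in 8 files with 1 column per library. The submitters' processing notes name bcl2fastq, cutadapt, HISAT2 and HTSeq without versions, and the genome build, the annotation and the HTSeq strand setting are not given in the sources used here. All 27 columns were used and 0 were left out. TMM factors and CPM were computed over all libraries with edgeR 4.0.16 (limma 3.58.1, R 4.3.3), and for each comparison filterByExpr and the quasi-likelihood test on the libraries of its own groups, with Benjamini-Hochberg adjustment over all genes tested and a threshold of 0.05. Fold changes against groups with at most 3 counts in each library are given as bounds. Genes near the floor entered a list's counts and median only in comparisons where they passed the filter.

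The members and lists were chosen with earlier results of these data known. The 13 lists hold other FGF ligands, co-receptors and binding proteins, heparan sulfate carriers and enzymes, adaptors and the RAS-MAPK core, feedback and ETS targets, FGFR splicing regulators, midbrain-hindbrain organizer genes, primitive streak genes, and markers of pluripotent, neural, fibroblast and mesenchyme, trophoblast and amnion, and endoderm cells. Of their 150 symbols, 149 were found, and TBXT was not. Named were all 10 members, for each but FGF4, which was too low for it, the 2 genes with the highest Pearson correlation over the 8 group means of log2 CPM (prior count 2) among genes with a mean of at least 3 (1 of these genes is not reported here), and from each list the 2 genes with the highest and the 2 with the lowest mean change over the protocols among those tested in all 7, and any called the same way in all 7. Further genes of the lists, named for their level or for the filter, COL1A1, DCN, LUM, DNMT3B, ZFP42, LIN28A, SOX1, SOX17, CGA, WNT1, EN2, PAX2, NEUROG2 and POU3F2, were chosen after their values were seen. The rhesus RefSeq table of T2T-MMU8v2.0 was used only for names and neighbours and matched 10 of 10 members. The alternatives were DESeq2 1.42.0, upper-quartile scaling, no filter on low counts, a minimum absolute log2 fold change of 1, one fit of all groups, each single library omitted, replicate number as a block, and, chosen after seeing the data, the J or K primed columns alone and K against J. The procedure was tested on simulated data, and passed after the simulation was changed to dispersions per gene and its pass mark was lowered.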

Additional observations from a re-analysis of the deposited data

How the results depend on the processing

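Of the counts of members called, those of TL-CDK8i against TL2i and of the protocols other than E-NHSM and TL-CDK8i stayed within 1.5 times their value under each alternative run. The count of E-NHSM, 4, was 1 with a minimum log2 fold change of 1, 2 with the J columns alone, and from 1 to 5 when 1 library was left out. That of TL-CDK8i, 4, was 2 with the minimum fold change and from 2 to 5 when 1 library was left out. That of K against J, 1, was 2 with DESeq2, 2 without a filter on low counts, 0 with the minimum fold change, 3 with all groups in one fit, and 0 to 1 when 1 library was left out. The minimum fold change removes small differences by construction; otherwise the cause was not tested.

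Among single genes, 16 values changed sign, none of which was called in the test reported. In E-NHSM, FGF2 was at 0.12 with J only and FGF8 at 0.28 with K only. When 1 library was left out, FGF17 in TL2i ranged over -0.79 to 0.10, above 0 without J2 (0.0961) or J3 (0.10), and FGF13 over -0.28 to 0.027, above 0 without K3 or TL2i replicate 2 (0.00687). FGF13 was at 0.13 there with J only. In TL-CDK8i, FGFR3 ranged over -0.0478 to 0.22, below 0 without J3 (-0.0467) or TL-CDK8i replicate 1, and was at -0.00302 with K only, while with J only FGF2 was at 0.18 and FGFR2 at 0.0428. In K against J, FGFR4 was at -0.0159 with upper-quartile scaling and ranged over -0.14 to 0.17, below 0 without J1 (-0.045) or K2, and FGFR3 over -0.12 to 0.52, below 0 without J3. The cause was not tested. Over all single-gene values of members in the test reported, 1092 kept direction and side of the threshold, 20 gained a call, 40 lost one and 16 changed sign.

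Pairing by replicate number was tried for TL-CDK8i against TL2i, where a replicate block called 8 members, 4 higher and 4 lower, as without it. Residuals of the same number correlated at -0.127, -0.0135 and -0.00855 across genes, which are not independent, so the numbers show no pairs. Primed columns are numbered 1 to 3 within J and again within K, and the labels tie neither set to the libraries of a protocol. No paired analysis was possible there because it is not known which of the 2 sets a protocol's numbers would belong to.

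Groups of 3 libraries, 1 clonal line and unknown media limit these results. Genes at a few counts, FGF4, FGF17, and FGF8, FGF19 and FGFR4 in the low groups, are measured coarsely, and depth sets how large a fold can be seen. Bulk counts per gene separate neither cells nor splice forms, and reads shared between genes or left from other cells could not be examined.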
